A study of Mus musculus with 4 samples.

Results

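Interferon-stimulated genes are the genes that cells switch on when interferon reaches them. The set examined here holds 43 named mouse genes, given as a list of symbols that was drawn up with earlier results of these data known, out of 55536 genes in the count table, and each of the 43 symbols matched 1 row. Of these, 30 had enough counts to be tested and 13 did not. RNA was sequenced from cells of the bulge, where hair follicle stem cells reside, in 4 mouse skin samples on a C57BL/6 background. The 2 knockout samples came from Cdh5CreERT2; Alk1 flox/flox mice, in which a tamoxifen-activated Cre driven by the endothelial Cdh5 promoter removes Alk1 (Acvrl1), a BMP receptor of blood vessels. The 2 control samples came from littermates lacking Cre, and the sources used here do not state their Alk1 alleles. Both groups were injected with tamoxifen (100 µg per g of body weight, intraperitoneally) on postnatal day 17 and sampled on postnatal day 20. The Cre acts in endothelium, so bulge cells were not the cells targeted, and the method of isolating them is not stated. The titles number the samples 1 and 2 in each group without saying how far they are separate mice or pools, so p-values reflect only the variation among these 4 libraries.

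Type I interferons (alpha and beta) signal through the receptor pair Ifnar1 and Ifnar2, and type II interferon (gamma) through Ifngr1 and Ifngr2. The kinases Jak1, Jak2 and Tyk2 then activate STAT transcription factors. The complex ISGF3, which contains Stat2 and Irf9, binds the interferon-stimulated response element (ISRE), and the gamma-activated site (GAS) is the element of the type II response. The induced proteins sense foreign RNA and DNA, block viral replication, and reshape the proteasome for antigen presentation. Stem cells of several tissues are known to keep some of these genes on without interferon treatment.

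The response elements can be read in the promoters of the genes themselves. RefSeq promoter windows (GRCm38.p6, 250 bases before to 50 after the start) were matched for 32 of the 43 genes. The ISRE core was searched as GAAANNGAAA on both strands, and the GAS core as TTCNNNGAA, which reads the same on both strands. At least 1 ISRE core was present in 16 of the 32 genes (50%), against 3.99% of 27025 genes with a window. A GAS core was present in 10 of the 32 (31.25%), against 9.55% of all genes. A match is a description of letters and not a bound site. The 200 bases before the start are printed here for 7 genes, because their ISRE cores can be set against RNA levels that run from almost none to several CPM (counts-per-million scale); capitals mark the ISRE cores, overlapping cores form 1 longer run, and each line reads 5′ to 3′ along the gene's own strand.
Ifit1 (plus strand, chr19:34640689-34640888): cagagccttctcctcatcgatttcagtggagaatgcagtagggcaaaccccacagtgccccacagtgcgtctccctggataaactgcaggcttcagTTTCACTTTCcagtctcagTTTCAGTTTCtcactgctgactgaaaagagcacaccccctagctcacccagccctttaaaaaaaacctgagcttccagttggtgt
Ifit3 (plus strand, chr19:34583329-34583528): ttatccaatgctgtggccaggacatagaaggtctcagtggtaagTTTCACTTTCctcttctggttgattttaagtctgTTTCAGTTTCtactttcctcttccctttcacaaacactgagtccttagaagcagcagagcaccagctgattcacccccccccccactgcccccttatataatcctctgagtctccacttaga
Ifit3b (plus strand, chr19:34607757-34607956): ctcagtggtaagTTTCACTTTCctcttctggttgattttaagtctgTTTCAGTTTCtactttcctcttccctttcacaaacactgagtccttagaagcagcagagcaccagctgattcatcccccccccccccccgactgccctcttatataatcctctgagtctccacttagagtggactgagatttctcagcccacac
Isg15 (minus strand, chr4:156200819-156201018): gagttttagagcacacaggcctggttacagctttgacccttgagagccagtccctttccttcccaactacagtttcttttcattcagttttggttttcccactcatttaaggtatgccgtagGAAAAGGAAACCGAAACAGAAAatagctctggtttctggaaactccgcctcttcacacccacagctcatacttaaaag
Gbp2 (plus strand, chr3:142620463-142620662): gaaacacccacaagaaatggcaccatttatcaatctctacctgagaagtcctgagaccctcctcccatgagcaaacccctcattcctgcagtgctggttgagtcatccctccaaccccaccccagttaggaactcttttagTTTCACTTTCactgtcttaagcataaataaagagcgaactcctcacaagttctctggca
Gbp7 (plus strand, chr3:142530136-142530335): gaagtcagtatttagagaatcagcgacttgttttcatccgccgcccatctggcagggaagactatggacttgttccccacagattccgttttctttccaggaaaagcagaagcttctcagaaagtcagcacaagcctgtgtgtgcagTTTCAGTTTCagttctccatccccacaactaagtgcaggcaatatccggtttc
Bst2 (minus strand, chr8:71537473-71537672): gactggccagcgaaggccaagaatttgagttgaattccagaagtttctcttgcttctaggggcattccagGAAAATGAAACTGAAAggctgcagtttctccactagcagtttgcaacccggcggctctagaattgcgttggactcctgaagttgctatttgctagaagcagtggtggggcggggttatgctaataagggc

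The cores begin 104 and 85 bases before the start in Ifit1, 156 and 122 in Ifit3, and 188 and 154 in Ifit3b. The stretches of Ifit3 and Ifit3b share an unbroken run of 119 bases that holds both cores. In Isg15 the 3 cores overlap, beginning 78, 72 and 66 bases before the start, and in Bst2 the 2 cores begin at 130 and 124 and overlap each other, the first also overlapping a GAS core. Gbp2 and Gbp7 each hold 1 core, at 59 and 53 bases before the start.

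The libraries held 16326906 to 29130974 counts, of which 14259 genes were tested with edgeR's quasi-likelihood test. Levels are in CPM of effective library size and, for comparisons between genes, in RPKM, which divides CPM by exon length in kilobases. Exon length is that of all annotated exons of a gene merged, so a gene with long alternative exons gets a lower RPKM. Markers of the labelled cell type were abundant: the bulge keratin Krt15 was at 29088 to 36017 CPM and the surface protein Cd34 at 1328 to 1949 CPM. Keratins of interfollicular differentiation were also high. Krt10 was at 1768 to 6678 CPM, above Cd34 in every library, and Krt1 was at 546 to 2354 CPM. The leukocyte marker Ptprc was at 2.37 to 3.07 CPM. The endothelial gene Cdh5 was at 0.138 to 1.38 CPM. The targeted gene Acvrl1 measured 21.6, 24.3, 17.9 and 23.1 CPM in control 1, control 2, knockout 1 and knockout 2, and in cells outside the endothelium this does not check the deletion. Of all tested genes, 1 passed the threshold of 0.05 on the edgeR adjusted p (0.00701%), and none of the 43 was that gene.

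No interferon-stimulated gene passed the threshold, in either direction. The smallest edgeR adjusted p among the 30 tested was 0.43, and at an unadjusted p under 0.05 there were 2 above 0 (Isg20 and Bst2) and 1 below (Gbp7), where 4.80% and 5.94% of all tested genes lay. DESeq2 called 0 of the 23 for which it gave an adjusted p, against 0.802% of all genes, and edgeR without a count filter called 1, Gbp2, against 1.79% of all genes (0.678% higher and 1.11% lower in knockout). What the data do show is a wide range of levels among the genes and a difference between the knockout libraries. Knockout 2 had the highest level of 20 of the 30 genes, against 29.9% of all tested genes, while knockout 1 had the highest of 3, against 22.5%. Control 1 was highest for 5 and control 2 for 2, against 24.9% and 22.7%. Knockout 1 was the lowest library for 13 of the 30, against 26.2% of all genes, and knockout 2 for 3, against 30.5%. Control 1 was lowest for 5 and control 2 for 9, each against 21.6%. The values of a gene are given from here on in the order control 1, control 2, knockout 1, knockout 2.

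Levels ran in a continuous range from well expressed to absent. Of the 30 tested genes, 12 had a mean of at least 10 CPM, 8 lay between 2 and 10 CPM, and 10 were under 2 CPM. The mean level over the 4 libraries was highest for Ifi27, a small membrane protein, at 45.0 RPKM. Trim25, the ubiquitin ligase that acts on the RNA sensor encoded by Ddx58, followed at 23.7 RPKM and Ifi35, a leucine zipper protein, at 15.8 RPKM. Psmb10, Irf9 and Psmb8 were at 6.57, 6.25 and 6.20 RPKM. These 6 were the only ones of the 43 above the median of all tested genes, 4.84 RPKM. At the other end, Oasl1 had no count in any library, which allows up to 0.102 to 0.180 CPM per library (3 counts, counting error only). Ifit3, Ifit3b, Ifi44 and Zbp1 had at most 2 counts in a library.

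**Figure D1:**
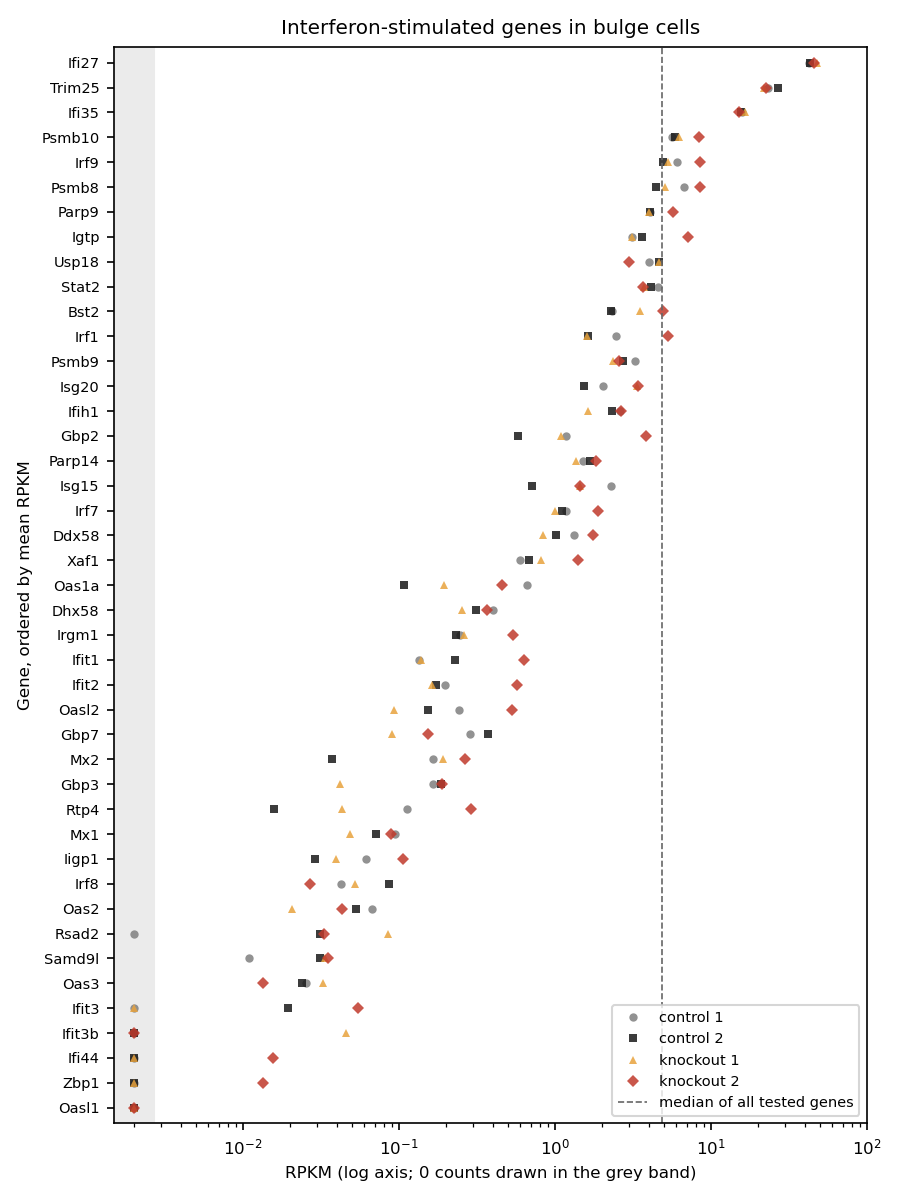
RPKM (log axis) of the 43 genes in each of the 4 libraries, ordered by mean RPKM, with the median of all tested genes as a dashed line and 0 counts drawn in the grey band. Only 6 genes have a mean above the dashed line at 4.84 RPKM, and the red diamonds of knockout 2 lie to the right of the other libraries for many genes between 0.1 and 10 RPKM.

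The sensors were present at low levels. Ifih1 (MDA5) and Ddx58 (RIG-I) are helicases that recognise viral double-stranded RNA, Dhx58 (LGP2) regulates both, and Zbp1 binds Z-form nucleic acid and can start necroptosis. Ifih1 measured 21.3, 19.03, 13.4 and 21.7 CPM, and Ddx58 measured 9.40, 7.15, 5.93 and 12.5 CPM. For both, knockout 1 was lowest and knockout 2 highest, so the control values lay between the knockout values. Their log2 fold changes were -0.20 ± 0.25 and 0.16 ± 0.38 (SE; edgeR adjusted p = 0.78 and 0.89). Dhx58 was at 0.827 to 1.32 CPM, and Zbp1 had 1 count, in knockout 2.

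Among the transcription factors, Stat2 and Irf9 are the ISGF3 subunits in the set, Irf1 is a gamma-responsive activator, Irf7 amplifies type I interferon production, and Irf8 is a factor of myeloid cells. Stat2 measured 27.1, 24.7, 22.3 and 21.8 CPM, with both knockouts below both controls and a log2 fold change of -0.23 ± 0.15 (edgeR adjusted p = 0.59). Irf9 measured 32.98, 26.8, 28.7 and 46.2 CPM, and the groups overlapped because knockout 1 lay between the controls. Its log2 fold change was 0.33 ± 0.25 (edgeR adjusted p = 0.65). Irf1 measured 9.82, 6.54, 6.44 and 21.2 CPM. Knockout 2 held 2.16 times the next highest library, and knockout 1 was the lowest of the 4. Irf7 measured 4.49, 4.20, 3.77 and 7.18 CPM, in the same arrangement, with a log2 fold change of 0.33 ± 0.37 (edgeR adjusted p = 0.75). Irf8 had 5, 18, 8 and 4 counts and was not tested.

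The IFIT proteins, which bind viral RNA, were close to absent although 3 of their 4 genes hold ISRE cores in the window. Ifit1 measured 0.359, 0.610, 0.368 and 1.68 CPM, and Ifit2 measured 0.778, 0.677, 0.644 and 2.25 CPM. In both genes knockout 2 stood alone, at 2.75 and 2.89 times the next highest library, on 35 and 47 counts. The log2 fold changes were 1.02 ± 0.78 and 0.99 ± 0.66 (edgeR adjusted p = 0.65 and 0.60). Ifit3 had 0, 1, 0 and 2 counts and Ifit3b 0, 0, 2 and 0. These neighbours on chromosome 19 are near-identical copies: 51.2% of the 50-base windows of Ifit3 transcripts also occur in another gene, all of them in Ifit3b. A read from such a window could be left out by a counter that drops multiply aligned reads, so the counts of this pair are uncertain.

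The OAS enzymes make the second messenger that activates RNase L, and the MX proteins are dynamin-like GTPases that trap viral components. Oasl2, an OAS-like gene, measured 1.56, 0.982, 0.598 and 3.40 CPM, with knockout 1 lowest and knockout 2 highest (log2 fold change 0.67 ± 0.79, edgeR adjusted p = 0.76). Oas1a measured 1.257, 0.203, 0.368 and 0.862 CPM, a spread within controls wider than that between groups. Of its transcript windows, 57.6% are shared with Oas1g. Oas2 and Oas3 had at most 7 and 5 counts in a library. Mx2 measured 0.599, 0.135, 0.689 and 0.958 CPM, with both knockouts above both controls, on 10, 4, 15 and 20 counts (log2 fold change 1.30 ± 0.75, edgeR adjusted p = 0.55). Without control 1 the Mx2 log2 fold change was 2.56, and without control 2 it was 0.48. Mx1, which is defective in common laboratory mouse strains, had 4 to 8 counts. The annotation classes Mx2 as a polymorphic pseudogene, so its RNA need not stand for a working protein.

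The guanylate-binding proteins and immunity-related GTPases, which attack the vacuoles of intracellular parasites and respond most to interferon gamma, held the largest fitted differences of the 30 genes in both directions, none past the threshold. Gbp2 (ENSMUSG00000028270, chr3:142620602-142638008, GRCm38) measured 2.99, 1.46, 2.76 and 9.72 CPM, so that knockout 2 held 3.25 times the next library and knockout 1 lay between the controls. Its log2 fold change was 1.52 ± 0.66 (edgeR adjusted p = 0.47), and without a count filter its edgeR adjusted p was 0.0068. Without knockout 2 the log2 fold change was 0.34. Gbp7 (ENSMUSG00000040253, chr3:142530342-142550149) had its difference in the other direction, at 1.62, 2.10, 0.506 and 0.862 CPM, with both knockouts below both controls (log2 fold change -1.45 ± 0.46, edgeR adjusted p = 0.43). Of its transcript windows, 12.7% are shared with other genes. The neighbour Gbp3 measured 0.539, 0.610, 0.138 and 0.623 CPM, and only knockout 1 was low, with 3 counts (log2 fold change -0.61 ± 0.74, edgeR adjusted p = 0.77). The highest library was thus knockout 2 for Gbp2 and Gbp3 and control 2 for Gbp7, all 3 on chromosome 3.

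Igtp (Irgm3) and Irgm1 are immunity-related GTPases that control autophagy around parasite vacuoles. Igtp measured 6.29, 7.28, 6.30 and 14.4 CPM, and Irgm1 measured 1.44, 1.35, 1.52 and 3.16 CPM. Knockout 2 stood at 1.97 and 2.08 times the next library, and knockout 1 was close to the controls in both. The log2 fold changes were 0.60 ± 0.40 and 0.74 ± 0.46 (edgeR adjusted p = 0.60 and 0.58). Iigp1 had 6, 5, 5 and 13 counts and was not tested.

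The immunoproteasome subunits replace the catalytic subunits of the standard proteasome under interferon. Psmb8 measured 22.6, 15.1, 17.1 and 28.98 CPM, with knockout 2 highest and the groups overlapping (log2 fold change 0.29 ± 0.31, edgeR adjusted p = 0.74). Psmb9 measured 11.9, 10.03, 8.60 and 9.39 CPM, with both knockouts below both controls (-0.28 ± 0.21, edgeR adjusted p = 0.64). Psmb10 measured 9.70, 9.99, 10.7 and 14.4 CPM, with both knockouts above both controls (0.35 ± 0.23, edgeR adjusted p = 0.59). By RPKM, each was far below the standard subunit it replaces. The merged exon length dividing CPM was 3381 bases for Psmb8 and 3660 for Psmb9, which lowers their RPKM. In CPM the gap was smaller for Psmb8, at 15.1 to 28.98 CPM against 31.6 to 61.1 CPM for Psmb5. Psmb8 was at 17.2%, 12.7%, 7.46% and 21.2% of Psmb5 RPKM, Psmb9 at 3.25% to 5.53% of Psmb6, and Psmb10 at 12.9% to 18.5% of Psmb7. The low ratio of Psmb8 in knockout 1 came with Psmb5 at 61.1 CPM there, against 31.6 to 36.4 CPM in the other libraries.

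Isg15 is a ubiquitin-like protein, Usp18 removes it from its targets and restrains the type I receptor, and Trim25 is a ligase. Isg15 measured 1.74, 0.542, 1.10 and 1.10 CPM on 16 to 29 counts, and both knockouts lay between the controls (log2 fold change 0.01 ± 0.61, edgeR adjusted p = 0.99). Its promoter holds the 3 overlapping ISRE cores printed above, and control 1 was its highest library. Usp18 measured 11.3, 12.9, 13.0 and 8.38 CPM, with knockout 2 the lowest library (-0.18 ± 0.26, edgeR adjusted p = 0.81). Trim25 measured 134, 155, 126 and 131 CPM, with both knockouts below both controls (-0.17 ± 0.12, edgeR adjusted p = 0.64).

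Of the 7 tested among the remaining effectors, 4 had both knockouts above both controls, an arrangement held by 21.3% of all tested genes. Isg20 (ENSMUSG00000039236, chr7:78913424-78920396), an exonuclease that degrades viral RNA, measured 3.77, 2.84, 6.30 and 6.32 CPM. Its controls averaged 3.31 ± 0.655 CPM and its knockouts 6.31 ± 0.0174 CPM (SD, n = 2 each), with a log2 fold change of 0.94 ± 0.28 (edgeR adjusted p = 0.43). Isg20 was the gene of smallest unadjusted p in the set, 0.016 by edgeR, and its fold change was 0.94 with either knockout left out. Bst2 (tetherin; ENSMUSG00000046718, chr8:71534255-71537456), which holds budding virus at the cell surface, measured 2.10, 2.07, 3.17 and 4.45 CPM (0.87 ± 0.34, edgeR adjusted p = 0.45). Xaf1, a promoter of apoptosis, measured 2.81, 3.18, 3.82 and 6.61 CPM (0.79 ± 0.36, edgeR adjusted p = 0.48). Ifi27 measured 62.8, 63.9, 70.1 and 67.5 CPM, a small and even difference (0.12 ± 0.11, edgeR adjusted p = 0.71).

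Ifi35 was level across the libraries, at 27.3, 26.9, 28.6 and 26.2 CPM (log2 fold change 0.02 ± 0.14, edgeR adjusted p = 0.97). Parp9 and Parp14, ADP-ribosyltransferases of macrophage and antiviral signalling, gave 0.26 ± 0.20 and 0.01 ± 0.21 (edgeR adjusted p = 0.65 and 0.99). Parp9 was at 19.7 to 19.9 CPM in 3 libraries and at 27.9 CPM in knockout 2. The effectors Rsad2 (viperin), Rtp4, Samd9l and Ifi44 were not tested, and their largest counts in a library were 8, 13, 5 and 2. For Rtp4 the 13 counts were in knockout 2, against 1 to 4 in the others.

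**Figure D2:**
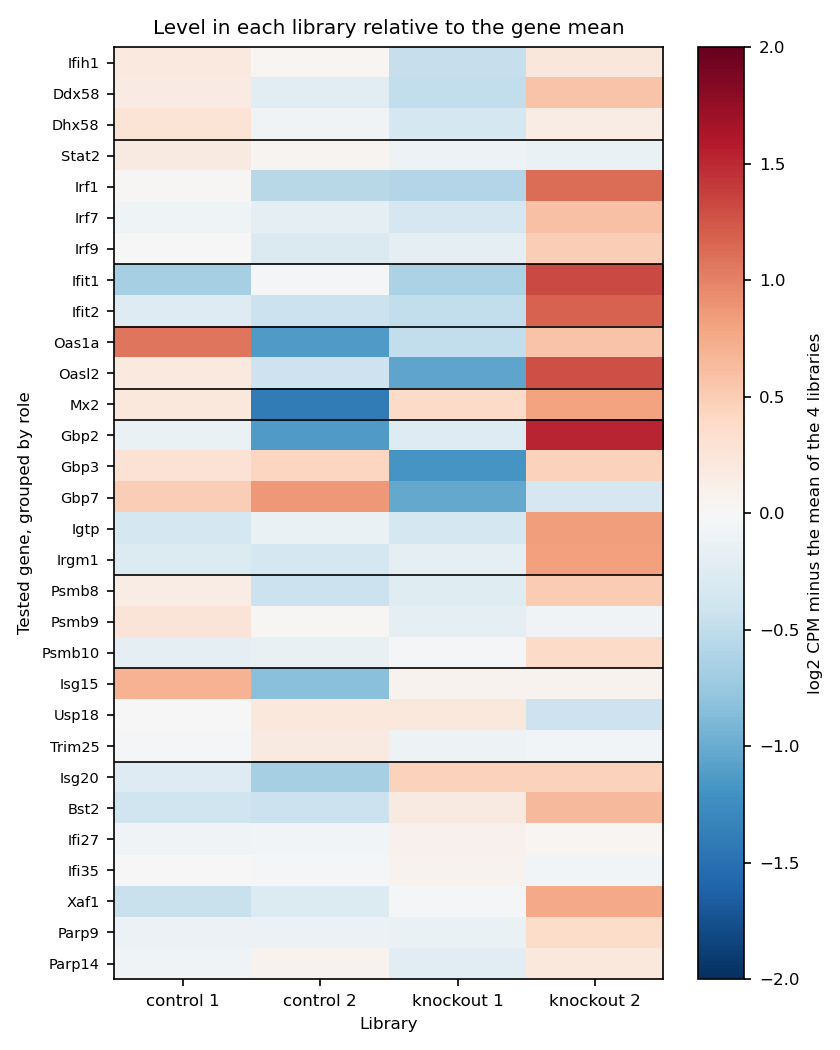
Heat map of log2 CPM minus the gene's mean over the 4 libraries for the 30 tested genes (rows, grouped by role, lines between roles) in each library (columns). The knockout 2 column is mostly red, with Gbp2, Ifit1 and Oasl2 deepest, while the knockout 1 column is mostly blue or pale.

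Set side by side, the knockout libraries lay at the opposite ends of the 4. The median deviation of the 30 genes from their own means was 0.00 in control 1, -0.16 in control 2, -0.21 in knockout 1 and 0.48 in knockout 2 (log2 CPM). Over all tested genes the same medians lay between -0.0038 and 0.018. Knockout 2 exceeded the next library by more than 1.5 times for 9 of the 30 genes, against 3.29% of all tested genes: Irf1, Irf7, Ifit1, Ifit2, Oasl2, Gbp2, Igtp, Irgm1 and Xaf1. Control 1 did so for 1 gene, Isg15, and the other 2 libraries for none, against 3.22%, 1.12% and 0.568% of all genes for control 1, control 2 and knockout 1.

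A gene of few counts can pass the count filter through the libraries where it is high, so the count was also taken over the 20 genes with a mean of at least 2 CPM over all libraries. Knockout 2 was highest for 14 of these 20, against 29.9% of the 11782 tested genes at that level, and exceeded the next library by more than 1.5 times for 5, against 2.15%. Over the 42 of the 43 genes with any count, tested or not, knockout 2 was highest for 26. No share over all genes with a count was computed beside it, and the untested genes had at most 18 counts in a library. The counts of genes highest in knockout 2 are descriptions of 1 library and have no test.

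**Figure D3:**
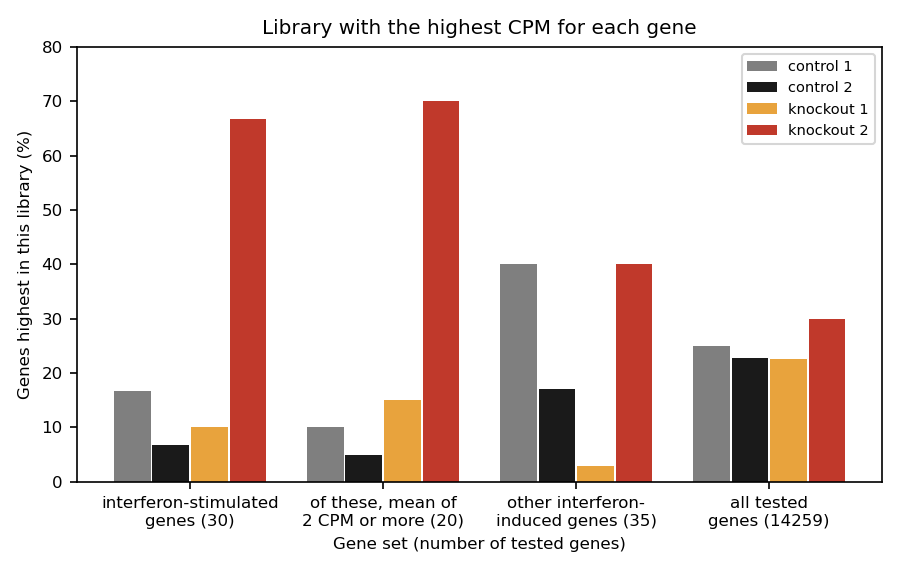
Share of genes (percent, bars from 0) for which each library has the highest CPM, in 4 gene sets. The red bar of knockout 2 stands at 66.7% for the 30 interferon-stimulated genes and 70.0% for the 20 better expressed ones, against 29.9% for all tested genes.

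The sign of the list's median turned on that library. The median log2 fold change of the 30 genes was 0.28, with 21 above 0, against a median of -0.02 and 47.5% above 0 over all tested genes. Without knockout 2 the median was -0.15, with 11 of 30 above 0, and without knockout 1 it was 0.57, with 24 above 0. Over all tested genes these medians were -0.03 and -0.03. Leaving out knockout 2 turned the sign of 12 of the 30 genes, among them Irf1 (from 0.76 to -0.34), Ifit1 (from 1.02 to -0.44) and Oasl2 (from 0.67 to -1.05). The share of all tested genes whose sign turned was not computed. Both knockouts lay above both controls for 7 genes (Mx2, Irgm1, Psmb10, Isg20, Bst2, Ifi27 and Xaf1), against 21.3% of all tested genes. Both lay below both controls for 4 (Stat2, Gbp7, Psmb9 and Trim25), against 23.6%. These shares are near the background or below it.

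**Figure D4:**
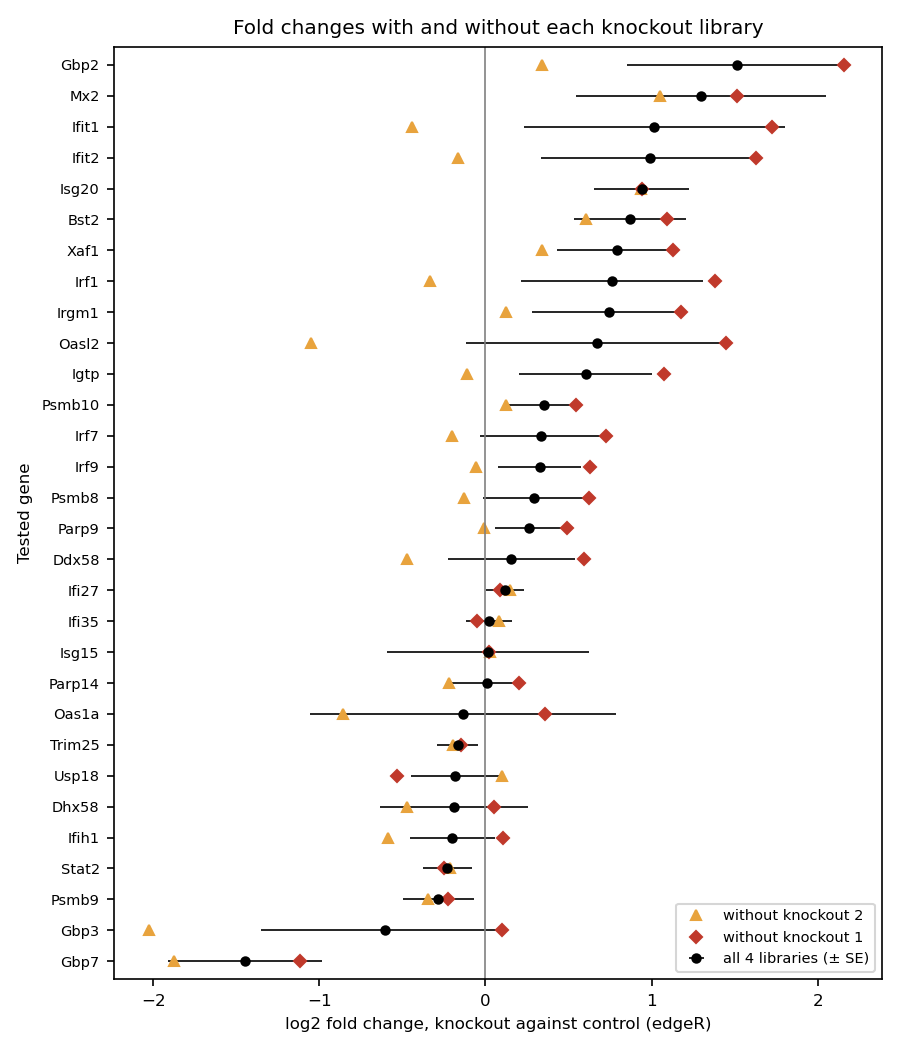
Log2 fold change (knockout against control, edgeR) of the 30 tested genes with all 4 libraries (black, bars ± SE), without knockout 2 (orange triangles) and without knockout 1 (red diamonds). The median is 0.28 with all libraries, -0.15 without knockout 2 and 0.57 without knockout 1, and Isg20 sits at 0.94 in each case.

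Genes with and without an ISRE core were both mostly highest in knockout 2. Of the 12 tested genes with a core in the window, knockout 2 was highest for 8, with a median deviation of 0.56 (log2 CPM) there. Of the 12 tested genes with a window and no core, it was highest for 9, with a median deviation of 0.50. The difference between these medians was not tested.

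Upstream of these genes stand the ligands, receptors and kinases. None of 20 interferon ligand genes had a count in any library, which covers Ifnb1, Ifng, Ifnk and the alpha genes. All 6 receptor genes were tested and none passed; knockout 2 was highest for 5 of them, in no case by more than 1.5 times. The receptor subunit Ifngr2 measured 29.03, 25.7, 36.8 and 42.96 CPM, with both knockouts above both controls (log2 fold change 0.54 ± 0.15, edgeR adjusted p = 0.43). Its partner Ifngr1 measured 62.3, 37.3, 55.0 and 69.1 CPM (0.32 ± 0.26, edgeR adjusted p = 0.66). Of 5 kinase and STAT genes none passed. Tyk2 gave a log2 fold change of -0.17 ± 0.12 and Jak2 of 0.21 ± 0.16 (edgeR adjusted p = 0.64 and 0.65).

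Of 16 tested genes that act in sensing before interferon is made, 0 passed the edgeR threshold and 1 had an unadjusted p under 0.05. That was Tlr3, the endosomal receptor for double-stranded RNA, at 10.1, 10.97, 7.03 and 6.42 CPM (log2 fold change -0.65 ± 0.22, edgeR adjusted p = 0.43). Tmem173 (STING), the adaptor of DNA sensing, gave 0.95 ± 0.46 on 10, 24, 24 and 35 counts (edgeR adjusted p = 0.50). Of 10 negative regulators none passed. Irf2bp2, a corepressor, gave -0.35 ± 0.15, and Ptpn2, a phosphatase of JAK and STAT proteins, 0.27 ± 0.18 (edgeR adjusted p = 0.47 and 0.60). All 5 standard proteasome and activator genes had both knockouts above both controls (21.3% of all tested genes), and none passed. Knockout 1, not knockout 2, was the highest library for all 5. Psmb5 gave 0.55 ± 0.25 and Psme1 0.20 ± 0.11 (edgeR adjusted p = 0.48 and 0.54).

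A second list of 56 interferon-induced genes, of which 35 were tested, was set beside them, chosen with the same knowledge. Knockout 2 was highest for 14 of the 35 (40.0%), and its median deviation was 0.08 (log2 CPM). For the 30 genes above these values were 66.7% and 0.48, and the difference was not tested. Control 1 was also highest for 14 of the 35, with a median deviation of 0.11, so knockout 2 did not lead this list on either measure. Knockout 2 was lowest for 8 and control 1 for 5. Knockout 2 exceeded the next library by more than 1.5 times for 5 (14.3%, against 3.29% of all tested genes), and each other library for 0. The 5 were Ddx60, Uba7, Plscr1, Lgals3bp and the chemokine gene Cxcl10. Cxcl10 had 8, 9, 3 and 32 counts. The list's median log2 fold change was -0.04. No gene of it passed the main edgeR threshold, and Lgals9, a lectin, passed without a count filter (adjusted p = 0.039). Lgals9 measured 23.0, 21.4, 29.7 and 39.3 CPM (0.64 ± 0.18, edgeR adjusted p = 0.43). Znfx1, an RNA helicase of antiviral defence, measured 47.9, 42.4, 35.2 and 32.1 CPM (-0.42 ± 0.14, edgeR adjusted p = 0.43).

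Immune and vascular cells also express many of these genes, and in bulk RNA fewer cells of a type and less RNA per cell cannot be told apart. The 12 leukocyte and macrophage markers summed to 15.7 and 13.5 CPM in controls, 15.4 CPM in knockout 1 and 25.1 CPM in knockout 2, and knockout 2 was highest for 4 of the 6 tested. The lysosomal marker Cd68 made up much of that sum, at 3.95, 3.69, 4.92 and 12.8 CPM. The signalling adaptors Tyrobp (1.02, 0.542, 0.965 and 0.431 CPM) and Fcer1g (0.898, 0.813, 1.20 and 0.718 CPM) were lowest in knockout 2, and Lyz2 had 3, 22, 2 and 2 counts. Ptprc measured 2.75, 2.37, 2.48 and 3.07 CPM, and Mrc1 was at 0 in every library. The 3 complement genes C1qa, C1qb and C1qc were at 0.335, 0.287 and 0.239 CPM in knockout 2 and at most 0.237 CPM elsewhere.

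The 10 Langerhans and dendritic cell markers summed to 222, 202, 231 and 291 CPM, of which Epcam, also a gene of follicle keratinocytes, made up 129, 125, 142 and 192 CPM. In this list knockout 2 was highest for 3 of 7 tested, among them the class II gene H2-Eb1 at 11.1, 7.72, 8.60 and 20.4 CPM. The Langerhans cell lectin Cd207 (3.71, 2.34, 2.90 and 2.06 CPM) and Itgax (0.778, 1.19, 1.01 and 0.671 CPM) were lowest in knockout 2, and Xcr1 and Clec9a were at 0. The 6 plasmacytoid dendritic cell markers summed to 263, 125, 213 and 194 CPM, of which Ly6d made up 219, 82.0, 176 and 146 CPM. Knockout 2 was highest for 2 of the 3 tested. These were Tcf4, at 41.9, 40.8, 33.9 and 43.2 CPM, and Bst2, which is also 1 of the 43 genes. Siglech and Cox6a2 were at 0 in every library. The 12 T cell markers summed to 33.2, 32.5, 43.6 and 32.2 CPM, a sum that was not highest in knockout 2. Within it Thy1 measured 10.3, 13.2, 15.5 and 7.33 CPM. Of the 9 tested T cell markers, knockout 2 was highest for 3 and lowest for 3. Both knockouts lay above both controls for 5 of the 9, against 21.3% of all tested genes. The 10 endothelial markers summed to 26.0, 9.21, 7.77 and 21.03 CPM. Single genes weighed heavily, with Vwf at 12.0 CPM in control 1 and Tek at 10.6 CPM in knockout 2. The 7 fibroblast markers summed to 183, 233, 136 and 140 CPM. Most of that sum was Col1a1, at 117, 148, 89.5 and 75.3 CPM, and Col1a2, at 62.3, 80.9, 43.8 and 56.5 CPM. Of 5 tested fibroblast markers, knockout 2 was highest for 2 (Dcn and Col3a1), both by more than 1.5 times, and control 2 for 3. Markers of other skin epithelium also differed between libraries, and control 1 stood apart most. For the 7 markers of interfollicular differentiation, control 1 was highest for all and exceeded the next library by more than 1.5 times for 5. Knockout 2 was lowest for 6 of these 7, and the median deviations were 1.11, -0.65, 0.40 and -0.99 (log2 CPM). For the 7 sebaceous gland markers, control 1 was highest for all, by more than 1.5 times for 4, and knockout 2 was lowest for 6. The sebaceous median deviations were 0.89, -0.47, -0.00014 and -0.51, so knockout 2 lay close to control 2. The part of these cells in the knockout 2 values was not tested.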

How the data were processed

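Raw counts per gene were deposited by the authors for 4 libraries, 1 column each. Per the labels' protocols, RNA was taken up in TRIzol and libraries were directional and polyA-selected. Per the submitters' processing notes, the tools were Trim Galore 0.6.0, cutadapt, FastQC, STAR 2.7.0e (GRCm38, mm10) and DESeq2 1.26.0. For the counter, strand setting and annotation the sources used here give nothing, so near-identical, overlapping and antisense genes are uncertain. All 55536 identifiers matched GENCODE M21 (GRCm38), which gave symbols and exon lengths.

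Genes were kept by filterByExpr and compared with edgeR 4.0.16 (R 4.3.3; TMM, robust quasi-likelihood test, Benjamini-Hochberg adjustment over 14259 genes, threshold 0.05). The SE is the absolute log2 fold change divided by the square root of F. RPKM used effective library size and the merged length of all annotated exons. Log2 CPM used a prior count of 2. On simulated counts for this comparison (14259 genes, 50 changed per fold), 8% of the genes changed 1.5-fold were called. The share rose to 72% at 2-fold, 96% at 4-fold and 100% at 8-fold. Of 164 calls 26 were false, a share above the threshold of 0.05. The real comparison called 1 gene. The simulated shares were not computed for the 30 tested genes, of which 10 were under 2 CPM, and are not their power. Replicates were not duplicates (chi-square per degree of freedom 22.8 between controls and 30.0 between knockouts).

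The alternatives tried were: scaling by RLE or by upper quartile; fitting every gene with a count; requiring 50 counts in 2 libraries; limma-voom (limma 3.58.1); DESeq2 1.42.0; the replicate number as a block; and leaving out each library. Removal of an exon-length trend was added after seeing the data. The 43 genes and the lists were chosen with earlier results of these data known. Library values were to be given for the 4 tested genes of highest mean CPM, the 5 of smallest p per direction, Isg15, Irf7, Irf8, Stat2, Ifit3 and Ifit3b; 2 genes of smallest p were named per pathway list. Values of other genes were added after they were seen. Promoter sequences are RefSeq's. Values of a withheld pathway gene are not reported here.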

Additional observations from a re-analysis of the deposited data

How the results depend on the processing

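With every alternative except the fit without a count filter, 0 of the 43 genes and 0 of the other pathway genes passed the threshold. Without a filter 1 of each passed (Gbp2 and Lgals9), and 430 genes passed over the whole table. In that fit the median of the estimated prior degrees of freedom over genes was infinite, and genes with that value shared 1 trended spread. Over all genes DESeq2 called 101 and edgeR with the replicate block 106, of which 0 were among the 43. The titles do not say that equal numbers pair mice, and the deviations of equal numbers from their group means had a correlation of 0.12 across genes. Leaving out a library gave 1 to 65 calls over all genes, the 65 without knockout 1. A lone library was then assumed to vary like the others.

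The median log2 fold change of the tested genes ran from -0.15 (without knockout 2) to 0.57 (without knockout 1) with a library left out, at 0.43 without control 1 and 0.18 without control 2. It lay from 0.26 to 0.31 in the alternatives that kept all libraries. Single signs that turned lay near 0 or at low counts. Parp14 gave -0.0019 without a filter and with the stricter one, -0.022 with voom and -0.0018 with the replicate block. Isg15 gave -0.0032 with DESeq2 and -0.043 with the exon-length trend removed, where Ifi35 gave -0.025. Oas1a gave 0.34 with voom and 0.060 with the replicate block.

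For changes of sign no share over all tested genes was computed. With a library left out, 18 genes of the set changed sign at least once. Their log2 fold changes ran from -0.59 to 0.10 (Ifih1), -0.47 to 0.59 (Ddx58), -0.48 to 0.052 (Dhx58), -0.34 to 1.38 (Irf1), -0.20 to 0.72 (Irf7), -0.056 to 0.63 (Irf9), -0.44 to 1.73 (Ifit1), -0.16 to 1.63 (Ifit2), -1.01 to 1.57 (Oas1a), -1.05 to 1.45 (Oasl2), -2.03 to 0.10 (Gbp3), -0.11 to 1.08 (Igtp), -0.13 to 0.62 (Psmb8), -0.63 to 1.02 (Isg15), -0.53 to 0.098 (Usp18), -0.048 to 0.081 (Ifi35), -0.0099 to 0.49 (Parp9), -0.22 to 0.20 (Parp14). The other 12 kept their sign in each of these refits, though Mx2 ran from 0.48 to 2.56, Gbp2 from 0.34 to 2.16, Irgm1 from 0.12 to 1.18 and Xaf1 from 0.34 to 1.13. Depth limits the 13 untested genes, which had at most 18 counts in a library.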
